A study of Homo sapiens with 32 samples.

Results

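The unfolded protein and endoplasmic reticulum (ER) secretory genes are the transcripts that fold, process, export or degrade proteins entering the secretory pathway, together with the sensors that watch over that work. They were chosen by symbol from the deposited expression table. Of 35 named genes, 34 are rows of that table, out of 25066 features in all. MANF is listed there under its older symbol ARMET, so its values are given apart and it is left out of every count. MZB1 is listed as MGC29506 and is called MZB1 here. The 34 members fall into 6 roles, with 11 ER chaperones and their cofactors, 4 disulphide and prolyl isomerases, 3 genes of ER-associated degradation, 5 stress sensors and transcription factors, 9 genes of translocation and signal peptidase, and 2 genes of vesicle traffic.

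Proteins bound for the membrane or for secretion enter the ER through the SEC61 channel, lose their signal peptide, and fold with the help of BiP, GRP94, calreticulin, calnexin and the disulphide isomerases. When unfolded protein builds up, the sensors IRE1, PERK and ATF6 raise chaperone and degradation genes and slow translation, and IRE1 splices the XBP1 mRNA into the form that encodes an active transcription factor. B cells rely on this machinery to assemble immunoglobulin, and XBP1 drives its expansion when they become plasma cells.

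The study sequenced mRNA of a pair of lines from human diffuse large B-cell lymphoma: TMD8 has the activated B cell type and DOHH2 has the germinal centre type. Both lines are described as Cas9 engineered, so vehicle and treated cells share that modification. Each line received either the vehicle DMSO or 500 nM CSKi, an inhibitor of CSK, the kinase that restrains Src family kinases, for 1, 3, 6 or 24 h. Every combination of line, agent and time has 2 libraries, which the titles call biological replicates without saying whether they were separate cultures, so p-values measure the spread between these libraries, which may be technical. Each type is represented by 1 line, so line and type cannot be told apart.

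The 32 libraries held 12273442 to 24907030 mapped reads. All 6 B cell markers averaged over 100 reads per library in both lines. The 7 markers of the activated B cell type summed to 41371 to 74728 reads in TMD8 libraries and 2848 to 6570 in DOHH2, and the 7 germinal centre markers summed to 1591 to 3911 in TMD8 and 11093 to 27680 in DOHH2. The 7 T and NK cell markers summed to at most 13 reads in TMD8, where CD3D, CD2 and KLRD1 were at 0, and to at most 102 in DOHH2, where CD2 was at 0. The 7 myeloid markers summed to 44 to 96 reads in TMD8 and 95 to 202 in DOHH2, where LYZ averaged 128 reads and S100A8 and CD163 were at 0. The fibroblast and epithelial list summed to 1929 to 3217 reads in TMD8, most of it CDH1, and to at most 11 in DOHH2.

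The 4 DOHH2 libraries of 24 h went against their labels. Across the tested features, the library labelled DMSO replicate 1 differed from the one labelled CSKi replicate 2 with a standard deviation of 0.29 on the log2 scale, but from its own duplicate with 0.375. The library labelled CSKi replicate 1 lay nearer to the one labelled DMSO replicate 2 (0.325) than to its own duplicate (0.402). These 4 libraries were therefore kept out of the fit for DOHH2 at 1, 3 and 6 h, and results that change when they are put back are marked as such.

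Several members carry letters in their promoters that are known as binding elements of the unfolded protein response, and the sequences are shown because the genes that hold them moved in opposite directions in TMD8. RefSeq promoter windows on GRCh38.p14, from 250 bases before to 50 bases after the annotated start, were matched to 30 of the 34 members. The ER stress response element (ERSE), searched on both strands as CCAAT, any 9 bases and CCACG, was in 6 of these 30 windows, those of HSPA5, HSP90B1, CALR, CANX, CRELD2 and XBP1, and in 0.0769% of all 35116 promoter windows of this length. The second form, ERSE-II, searched as ATTGG, any 1 base and CCACG, was in 3 member windows, those of SDF2L1, HYOU1 and HERPUD1, and in 0.0541% of all windows. The element TGACGTGG (UPRE) was, among members, in the HYOU1 window and in 0.729% of all windows, and there it shares 5 bases with an ERSE-II match. A match is a description of letters and not a bound site. The 6 runs below stop at the base before the start, are written 5′ to 3′ on the gene's strand in lower case, and have the fixed letters of each match in capitals. HSPA5 lies at chr9:125241344-125241593 on the minus strand, CALR at chr19:12938359-12938608 on the plus strand, CANX at chr5:179698679-179698928 on the plus strand, HYOU1 at chr11:119057206-119057455 on the minus strand, CRELD2 at chr22:49918384-49918633 on the plus strand, and HERPUD1 at chr16:56931892-56932141 on the plus strand.
HSPA5: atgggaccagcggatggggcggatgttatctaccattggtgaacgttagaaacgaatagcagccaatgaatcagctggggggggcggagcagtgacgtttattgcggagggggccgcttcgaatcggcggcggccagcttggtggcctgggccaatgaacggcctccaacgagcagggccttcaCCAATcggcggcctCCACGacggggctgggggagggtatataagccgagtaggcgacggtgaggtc
CALR: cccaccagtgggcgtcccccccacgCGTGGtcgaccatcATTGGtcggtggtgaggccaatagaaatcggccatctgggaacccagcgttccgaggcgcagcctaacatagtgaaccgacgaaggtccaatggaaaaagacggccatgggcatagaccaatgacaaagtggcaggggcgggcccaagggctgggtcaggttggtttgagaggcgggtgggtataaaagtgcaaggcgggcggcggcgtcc
CANX: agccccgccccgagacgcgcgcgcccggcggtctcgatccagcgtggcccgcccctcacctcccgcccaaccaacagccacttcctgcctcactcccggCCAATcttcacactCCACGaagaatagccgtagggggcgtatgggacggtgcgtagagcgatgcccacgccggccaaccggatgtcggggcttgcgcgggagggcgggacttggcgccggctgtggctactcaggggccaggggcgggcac
HYOU1: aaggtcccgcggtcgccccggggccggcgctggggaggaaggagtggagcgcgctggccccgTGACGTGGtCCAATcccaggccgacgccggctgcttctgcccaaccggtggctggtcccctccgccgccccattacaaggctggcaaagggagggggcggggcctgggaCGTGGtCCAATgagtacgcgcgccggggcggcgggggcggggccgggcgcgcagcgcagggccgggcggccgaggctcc
CRELD2: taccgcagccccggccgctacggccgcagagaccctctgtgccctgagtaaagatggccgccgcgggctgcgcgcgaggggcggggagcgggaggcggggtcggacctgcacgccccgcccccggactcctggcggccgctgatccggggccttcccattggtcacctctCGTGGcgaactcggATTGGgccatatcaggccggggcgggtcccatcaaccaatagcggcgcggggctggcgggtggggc
HERPUD1: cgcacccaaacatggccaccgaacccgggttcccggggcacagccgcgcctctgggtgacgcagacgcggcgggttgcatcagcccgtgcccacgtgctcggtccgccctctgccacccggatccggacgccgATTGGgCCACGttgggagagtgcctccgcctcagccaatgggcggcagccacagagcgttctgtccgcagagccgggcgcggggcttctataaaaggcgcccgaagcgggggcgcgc

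**Figure D1:**
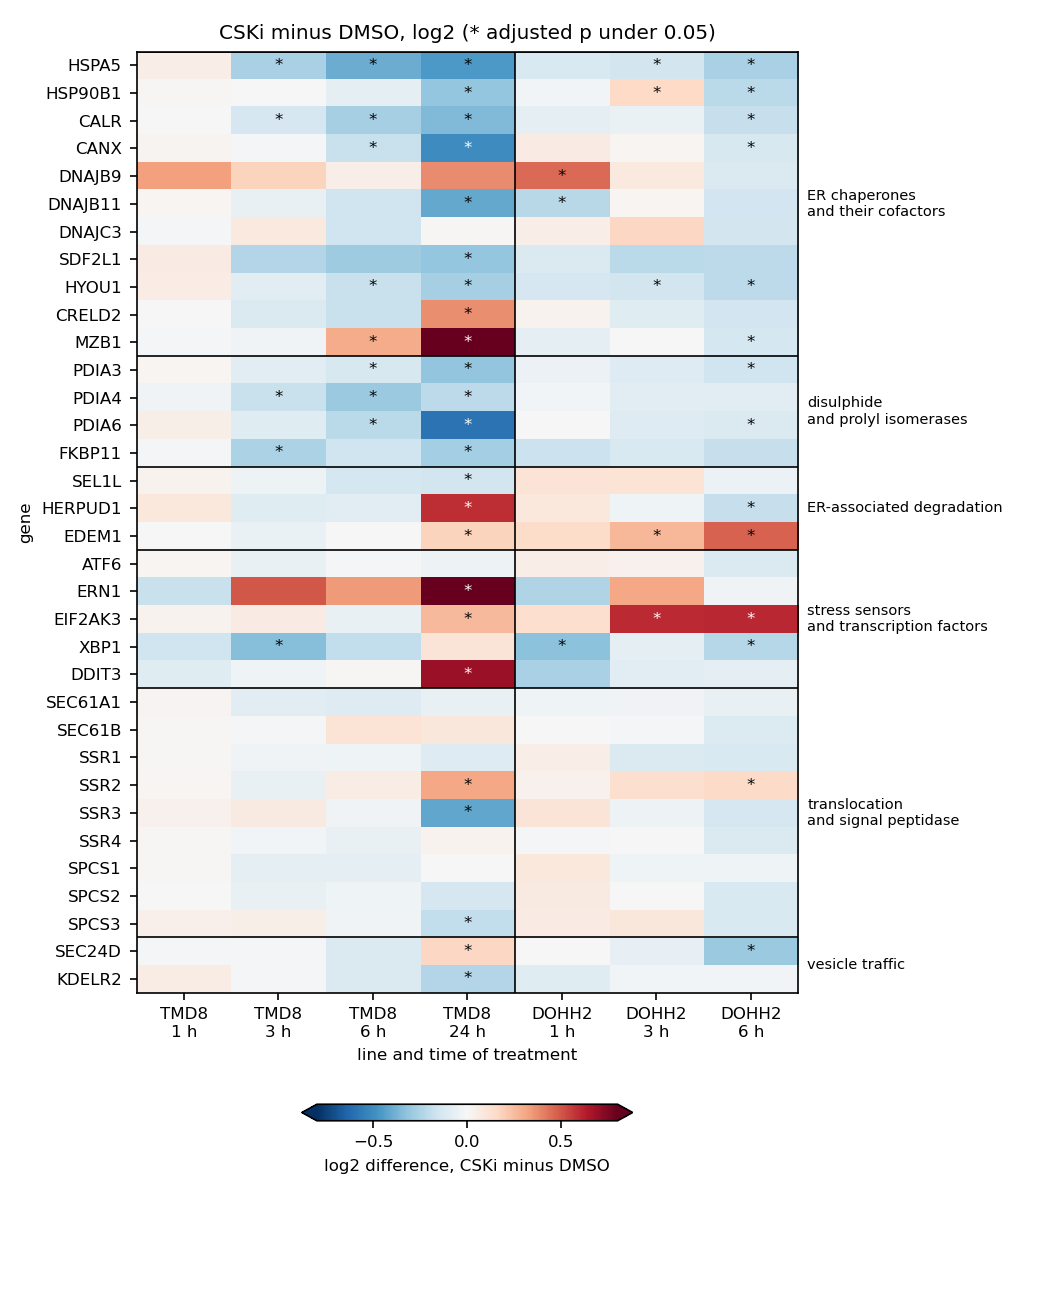
Difference between CSKi and DMSO for the 34 members (rows, grouped by role) in TMD8 at 1, 3, 6 and 24 h and in DOHH2 at 1, 3 and 6 h (columns). Colour is the log2 difference of the means of 2 libraries per arm, with blue for lower and red for higher after CSKi; colours saturate at 0.8 on either side, and asterisks mark an adjusted p under 0.05.

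In TMD8 no member passed the test at 1 h. Of the 15 chaperones, cofactors and isomerases, 4 were lower at 3 h, 7 at 6 h and 11 at 24 h, and 5 of the 8 sensors and degradation genes were higher at 24 h. A gene was called when its adjusted p, by limma with Benjamini-Hochberg adjustment over 12000 features, was under 0.05. For the response to CSKi, fell and rose mean below or above DMSO at the same time, not a change over time. At 1 h none of the 34 members was called, against 0.05% of all features; 1 member, XBP1, had an unadjusted p under 0.05, and voom on recovered reads called 0 members. At 3 h 5 members were lower and 0 higher (4.73% of all features called in either direction, 3.26% lower), at 6 h 7 were lower and 1 higher (12.6% of features called, 6.98% lower and 5.67% higher), and at 24 h 15 were lower and 9 higher (54% of features called, 26.2% lower and 27.9% higher). The median log2 difference of the members was -0.06 at 3 h, -0.10 at 6 h and -0.08 at 24 h, while that of all tested features stayed between 0.01 and 0.02. At 6 h both CSKi libraries lay below both DMSO libraries in 22 of the 34 members, against 24.9% of all features.

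HSPA5 encodes BiP, the HSP70 chaperone of the ER and the protein whose release activates the stress sensors. On the deposited scale, log2 of scaled reads, where 1 unit is a 2-fold difference, its values in TMD8 were 13.26 and 13.22 in DMSO and 13.28 and 13.30 in CSKi at 1 h. At 3 h they were 13.19 and 13.19 in DMSO against 12.94 and 12.92 in CSKi, and at 6 h 13.16 and 13.19 against 12.79 and 12.77. At 24 h they were 13.51 and 13.52 against 13.06 and 13.04. At 1 h both CSKi libraries lay slightly above both DMSO libraries, without a call. From 3 h on, both lay below both DMSO libraries at each time. HSPA5 fell by 0.26 ± 0.03 (SE) at 3 h (limma adjusted p = 7.03e-06), by 0.40 ± 0.03 at 6 h (3.44e-09) and by 0.46 ± 0.03 at 24 h (2.01e-11), the last a level 1.38-fold lower. In bulk RNA, fewer cells of a kind and less RNA per cell cannot be told apart.

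The other chaperones of the lectin and HSP90 type were lower than DMSO from different times on. CALR, the lectin chaperone calreticulin, had 14.08 and 14.06 in DMSO and 13.92 and 13.94 in CSKi at 3 h. It had 14.13 and 14.11 against 13.85 and 13.86 at 6 h, and 14.37 and 14.41 against 14.05 and 14.03 at 24 h. The arms of CALR were apart at each of these times. It fell by 0.26 ± 0.03 at 6 h (limma adjusted p = 7.23e-07) and by 0.35 ± 0.03 at 24 h (5.27e-10). CANX, its membrane-bound partner calnexin, stood at 13.70 and 13.70 in DMSO and 13.18 and 13.21 in CSKi at 24 h. CANX fell by 0.18 ± 0.03 at 6 h and by 0.50 ± 0.03 at 24 h. Its difference from DMSO was larger at 24 h than at 6 h by 0.33 ± 0.05 (adjusted p = 7.2e-06 by limma). At 6 h CANX had read 13.32 and 13.32 in DMSO and 13.17 and 13.12 in CSKi. From 6 to 24 h it thus rose in DMSO and was no lower in CSKi. HSP90B1, which encodes GRP94, had 14.10 and 14.11 in DMSO and 13.77 and 13.82 in CSKi at 24 h. It was lower than DMSO there by 0.31 ± 0.03, while at 3 and 6 h it was not called. At 6 h it had read 13.74 and 13.75 in DMSO and 13.66 and 13.68 in CSKi. Both arms thus read higher at 24 h than at 6 h, DMSO by more. HSP90B1 has processed pseudogene copies, and no source used here says how the authors' counting treated shared reads.

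Of the cofactors of BiP, HYOU1, its nucleotide exchange factor, fell by 0.18 ± 0.05 at 6 h and by 0.26 ± 0.05 at 24 h. At 24 h DNAJB11, a J-domain cochaperone, fell by 0.41 ± 0.07, and SDF2L1, which works with DNAJB11, fell by 0.31 ± 0.10. The call of HYOU1 at 6 h was lost without any 1 of the 4 libraries (adjusted p up to 0.156 by limma), and that of SDF2L1 without CSKi replicate 2 (0.0772). DNAJB9, a cochaperone that holds IRE1 inactive, read 0.38 ± 0.19 higher at 24 h with adjusted p = 0.102 by limma on only 50 to 98 reads per TMD8 library, and DNAJC3, an inhibitor of PERK, differed by 0.01 ± 0.07. In all, 7 of the 11 chaperones and cofactors were lower and 2 higher at 24 h. ARMET, the secreted stress factor MANF, fell by 0.31 ± 0.06 at 6 h and by 0.61 ± 0.06 at 24 h, from 10.84 and 10.82 in DMSO to 10.20 and 10.24 in CSKi.

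Among the chaperones and cofactors, MZB1 and CRELD2 rose. MZB1 is a cofactor of GRP94 found in B cells, where it helps to assemble IgM. Its TMD8 values were 11.28 and 11.27 in DMSO and 11.56 and 11.58 in CSKi at 6 h, and 11.03 and 11.01 against 12.07 and 11.96 at 24 h. The arms did not overlap at either time. MZB1 rose by 0.29 ± 0.05 at 6 h (limma adjusted p = 8.54e-05) and by 1.00 ± 0.05 at 24 h (1.14e-14), a 2-fold higher level, and the gain from 6 to 24 h was 0.70 ± 0.07 (2.06e-08). CRELD2, a stress-induced ER protein, had 9.82 and 9.83 in DMSO and 10.36 and 10.03 in CSKi at 24 h. CRELD2 rose by 0.37 ± 0.09 there, but leaving out CSKi replicate 1, the higher library, gave an adjusted p of 0.0647 by limma.

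All 4 isomerases were lower in TMD8 at 24 h. PDIA6, a disulphide isomerase that binds BiP, read 12.50 and 12.51 in DMSO and 11.92 and 11.92 in CSKi, and fell by 0.59 ± 0.04 (limma adjusted p = 6.51e-12), 1.5-fold. PDIA3, the isomerase that works with calnexin and calreticulin on glycoproteins, fell by 0.31 ± 0.04, PDIA4, a further disulphide isomerase of the lumen, by 0.21 ± 0.04, and FKBP11, a prolyl isomerase of secretory cells, by 0.27 ± 0.07. PDIA4 differed earlier, with 12.28 and 12.29 in DMSO against 12.11 and 12.11 in CSKi at 3 h. At 6 h it had 12.46 and 12.37 against 12.14 and 12.09, and it fell by 0.18 ± 0.04 and 0.30 ± 0.04 at these times. FKBP11 also read lower at 3 h, with 9.69 and 9.69 in DMSO against 9.46 and 9.41 in CSKi. The call of PDIA4 at 3 h was lost without any 1 of the 4 libraries (up to 0.0864 by limma), and that of FKBP11 at 24 h without DMSO replicate 2 (0.0631). PDIA6 fell by 0.21 ± 0.04 at 6 h, and its difference from DMSO was larger at 24 h by 0.37 ± 0.06 (adjusted p = 1.62e-05 by limma). In CSKi PDIA6 had read 11.85 and 11.82 at 6 h, so it was no lower at 24 h. In DMSO it had read 12.06 and 12.04 at 6 h and was higher at 24 h.

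**Figure D2:**
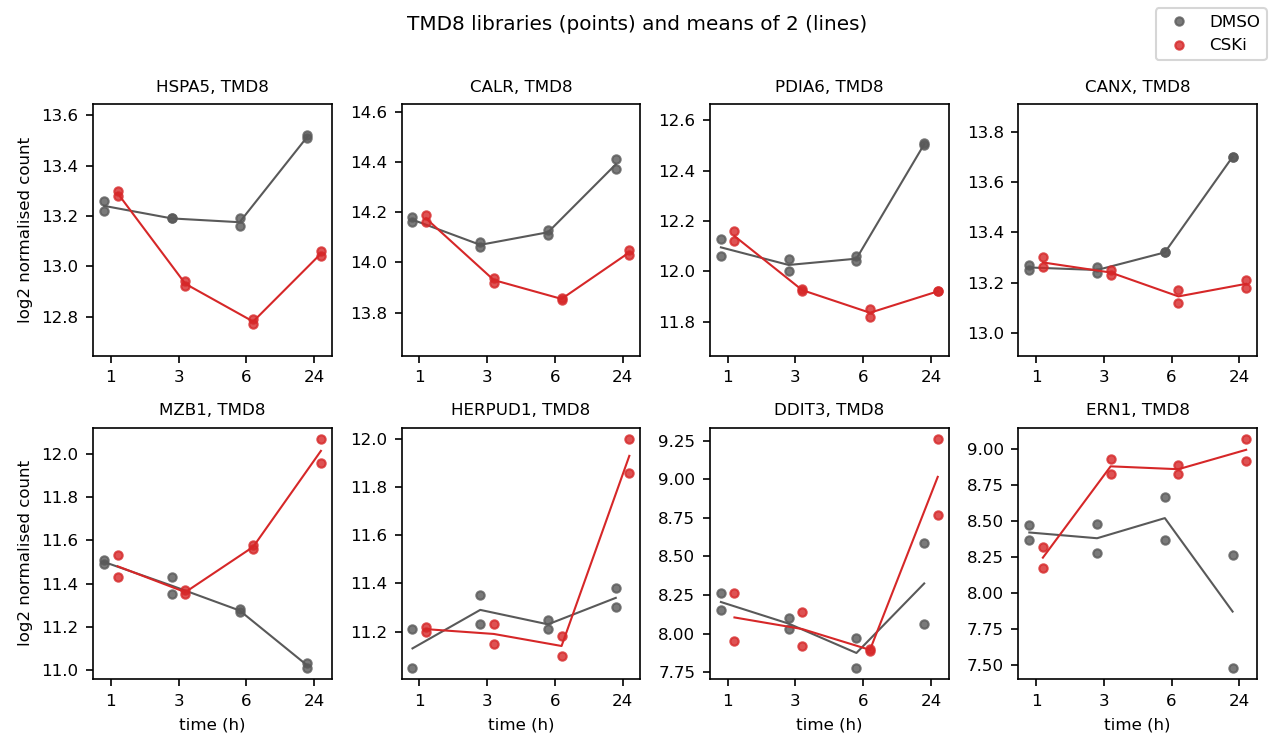
Log2 normalised count of 8 members in every TMD8 library against time, with DMSO in grey and CSKi in red; points are libraries, lines join the means of 2, and each panel has its own vertical range. HSPA5, CALR, PDIA6 and CANX lie below DMSO in both CSKi libraries at 6 and 24 h, and MZB1, HERPUD1, DDIT3 and ERN1 lie above it at 24 h in both CSKi libraries.

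The degradation genes moved the other way at 24 h, apart from SEL1L. HERPUD1, a membrane scaffold of the degradation complex, had 11.38 and 11.30 in DMSO and 12 and 11.86 in CSKi. Its arms were apart, and it rose by 0.59 ± 0.06 (limma adjusted p = 6.26e-09). At 6 h it had differed by only -0.09, and the change between the times was 0.68 ± 0.08 (7.74e-07). EDEM1, which hands misfolded glycoproteins to degradation, rose by 0.18 ± 0.05, and SEL1L, the adaptor of the ubiquitin ligase HRD1, fell by 0.15 ± 0.05. By limma, EDEM1 lost the call without DMSO replicate 2 (adjusted p = 0.107), and SEL1L without replicate 2 of either arm (up to 0.147).

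Of the 5 sensors and transcription factors, 3 rose at 24 h and none fell. ERN1, which encodes IRE1, had 8.26 and 7.48 in DMSO and 9.07 and 8.92 in CSKi on 136 to 270 reads. The arms did not overlap although the DMSO libraries lay far apart, and ERN1 rose by 1.12 ± 0.16 (limma adjusted p = 1.3e-06). It had read higher in CSKi before, with 8.48 and 8.28 in DMSO against 8.83 and 8.93 in CSKi at 3 h. At 6 h it had 8.67 and 8.37 against 8.89 and 8.83, and it was not called at either time. The size of its rise at 24 h thus depends on the low DMSO library at 7.48. DDIT3, the factor CHOP of the PERK arm, had 8.59 and 8.06 in DMSO and 9.26 and 8.77 in CSKi. Its arms did not overlap, but the duplicates of each arm lay far apart, and DDIT3 rose by 0.69 ± 0.16 (0.000624). EIF2AK3, which encodes PERK, rose by 0.26 ± 0.07, from 9.36 and 9.36 to 9.60 and 9.63. ATF6 differed by -0.04 ± 0.07.

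XBP1 was lower early and not late. Its TMD8 values at 3 h were 9.62 and 9.62 in DMSO and 9.23 and 9.32 in CSKi, a fall of 0.34 ± 0.08 (limma adjusted p = 0.00778) that was no longer called without either DMSO library or CSKi replicate 1 (up to 0.131). At 24 h they were 9.97 and 9.76 in DMSO against 9.96 and 9.98 in CSKi, a difference of 0.10 ± 0.08 that did not pass (0.266). Counts per gene do not tell spliced from unspliced XBP1 mRNA, so the activity of IRE1 is not read from them.

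Of the 9 translocation genes, 3 were called at 24 h, a smaller share than the 54% of all features. SSR2 rose by 0.31 ± 0.05 while SSR3 fell by 0.41 ± 0.07, although both encode subunits of the translocon-associated TRAP complex. SSR2 had 11.39 and 11.36 in DMSO and 11.78 and 11.60 in CSKi, and SSR3 had 11.34 and 11.36 against 10.78 and 11.09. Both pairs of arms were apart, with CSKi replicate 1 farther from DMSO than replicate 2 in each gene. SPCS3, a signal peptidase subunit, fell by 0.20 ± 0.07, and the other 6 of the 9 genes, SEC61A1, SEC61B, SSR1, SSR4, SPCS1 and SPCS2, were between -0.13 and 0.09 and not called. In vesicle traffic, SEC24D, a cargo adaptor of COPII coats, rose by 0.17 ± 0.06, and KDELR2, the receptor that returns escaped ER proteins, fell by 0.23 ± 0.06. SPCS3 lost the call without DMSO replicate 2 or CSKi replicate 1 (adjusted p up to 0.232 by limma), and SEC24D without replicate 1 of either arm (up to 0.178).

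**Figure D3:**
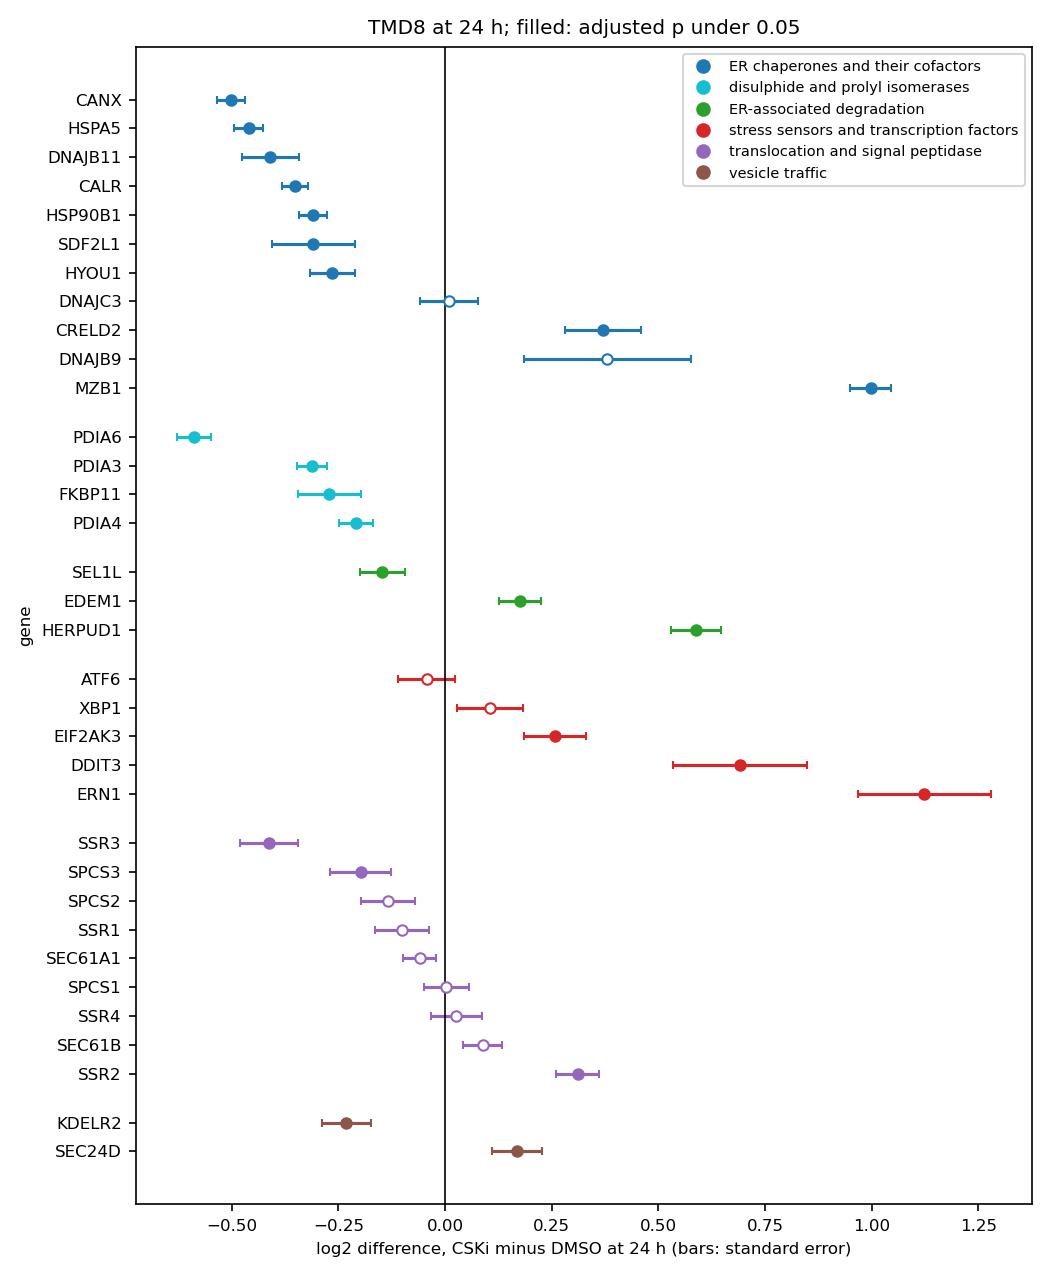
Log2 difference between CSKi and DMSO in TMD8 at 24 h for the 34 members, coloured by role and sorted within it; bars are standard errors from limma and filled points have an adjusted p under 0.05. Chaperones and isomerases lie mostly left of 0, with 11 of 15 lower, and the sensors and degradation genes mostly right of it, with 5 of 8 higher.

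In TMD8, 17 of the 24 calls at 24 h, 6 of the 8 at 6 h and 1 of the 5 at 3 h, that of HSPA5, held in each fit without 1 library and in each other alternative run. The response itself changed between 6 and 24 h in 14 members, with 9 differences more positive and 5 more negative at 24 h (29.6% of features called by limma, 15.4% and 14.1%), or 8 and 7 after scaling to total mapped reads, an alternative chosen after seeing the data. Of these 14, HSP90B1, CANX, CRELD2, MZB1, PDIA3, PDIA6, HERPUD1 and SSR3 kept the call in every fit.

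Members with promoter matches were called in both directions in TMD8 at 24 h, and a link between letters and direction was not tested. HSPA5, HSP90B1, CALR and CANX, with ERSE letters, fell, CRELD2, with the same letters, rose, and XBP1 was not called. SDF2L1 and HYOU1, with ERSE-II, fell, and HERPUD1, with ERSE-II, rose. As given above, the call of CRELD2 was lost without CSKi replicate 1 and that of SDF2L1 without CSKi replicate 2.

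In DOHH2 the changes with the smallest p at 3 and 6 h were rises of EIF2AK3 and EDEM1, and at 6 h chaperones fell beside them. At 1 h DNAJB9 rose by 0.45 ± 0.10, DNAJB11 fell by 0.22 ± 0.05 and XBP1 fell by 0.33 ± 0.06 (3 of 34 members, against 2.05% of all features, 0.825% higher and 1.23% lower). XBP1 had 10.56 and 10.46 in DMSO and 10.20 and 10.17 in CSKi. At 3 h 3 members were higher and 2 lower, against 14.5% of features called in either direction (7.28% higher and 7.27% lower). At 6 h 3 were higher and 11 lower, against 13.6% of features called (6.96% higher and 6.67% lower), with a median of -0.13 for the members and 0.00 for all features. Both CSKi libraries lay below both DMSO libraries in 28 of the 34 members at 6 h, against 26.3% of all features.

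EIF2AK3, the sensor PERK, had 12.04 and 12.07 in DMSO and 12.64 and 12.67 in CSKi at 3 h in DOHH2, and 11.75 and 11.73 against 12.36 and 12.32 at 6 h. The CSKi libraries lay well above DMSO at both times, and EIF2AK3 rose by 0.59 ± 0.04 at 3 h (limma adjusted p = 1.24e-11) and by 0.60 ± 0.04 at 6 h (8.71e-12), about 1.51-fold and 1.52-fold. EDEM1 had 13.10 and 13.06 in DMSO and 13.35 and 13.34 in CSKi at 3 h, and 12.78 and 12.69 against 13.26 and 13.16 at 6 h. It rose by 0.26 ± 0.04 and then by 0.47 ± 0.04 (4.22e-05 and 3.17e-09), with no overlap of the arms. In vehicle both genes fell from 1 to 6 h, EIF2AK3 by 0.59 ± 0.04 and EDEM1 by 0.23 ± 0.04, and the response and this vehicle change share the DMSO libraries of 6 h. With the 24 h libraries in the fit the vehicle change of EDEM1 was not called (adjusted p = 0.323 by limma). EIF2AK3 in the CSKi arm read 12.47 and 12.45 at 1 h and 12.36 and 12.32 at 6 h.

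Of the 11 chaperones and cofactors, 6 fell in DOHH2 at 6 h and none rose, and all 11 differences were negative. HSPA5 had 13.51 and 13.45 in DMSO and 13.19 and 13.24 in CSKi and fell by 0.26 ± 0.04 (limma adjusted p = 8.92e-06). HSP90B1 had 12.45 and 12.44 against 12.23 and 12.22 and fell by 0.22 ± 0.04, and CALR had 13.86 and 13.83 against 13.65 and 13.67 and fell by 0.19 ± 0.03. The arms of HSPA5, HSP90B1 and CALR were apart. HYOU1 fell by 0.21 ± 0.04, CANX by 0.13 ± 0.03 and MZB1 by 0.14 ± 0.04. PDIA3 and PDIA6 fell by 0.16 ± 0.04 and 0.12 ± 0.04, HERPUD1 by 0.19 ± 0.05, XBP1 by 0.23 ± 0.06 and SEC24D by 0.30 ± 0.08, while SSR2 rose by 0.15 ± 0.05. HSP90B1 had been higher by 0.16 ± 0.04 at 3 h, when HSPA5 and HYOU1 each fell by 0.15 ± 0.04.

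These DOHH2 calls rested on the choice of libraries to a larger degree. With the 24 h libraries in the fit, EIF2AK3 alone remained called at 3 and at 6 h, and no member at 1 h; EDEM1 then had an adjusted p of 0.499 at 3 h and 0.206 at 6 h, and HSPA5 0.525 and 0.245, by limma. Calls over all features fell as well, from 246 to 45 at 1 h, from 1745 to 315 at 3 h and from 1635 to 106 at 6 h. The loss is thus not particular to the members. Without 1 library at a time, HSPA5, HSP90B1, CALR, HYOU1, EDEM1 and EIF2AK3 stayed called at 6 h in all 4 fits and the other 8 did not, their adjusted p reaching 0.0972 for PDIA3, 0.112 for XBP1, 0.13 for CANX, 0.142 for SEC24D, 0.16 for HERPUD1, 0.264 for PDIA6, 0.36 for SSR2 and 0.45 for MZB1. Each of the 4 libraries of 6 h ended at least 1 of these calls. At 3 h HSPA5 reached 0.0579 without replicate 2 of either arm and HYOU1 0.11, and at 1 h all 3 calls were lost in at least 1 such fit (up to 0.119 for DNAJB9, 0.282 for DNAJB11 and 0.0723 for XBP1). Scaled to total mapped reads, 3 members were higher and 6 lower at 3 h, and voom called 3 higher and 4 lower.

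**Figure D4:**
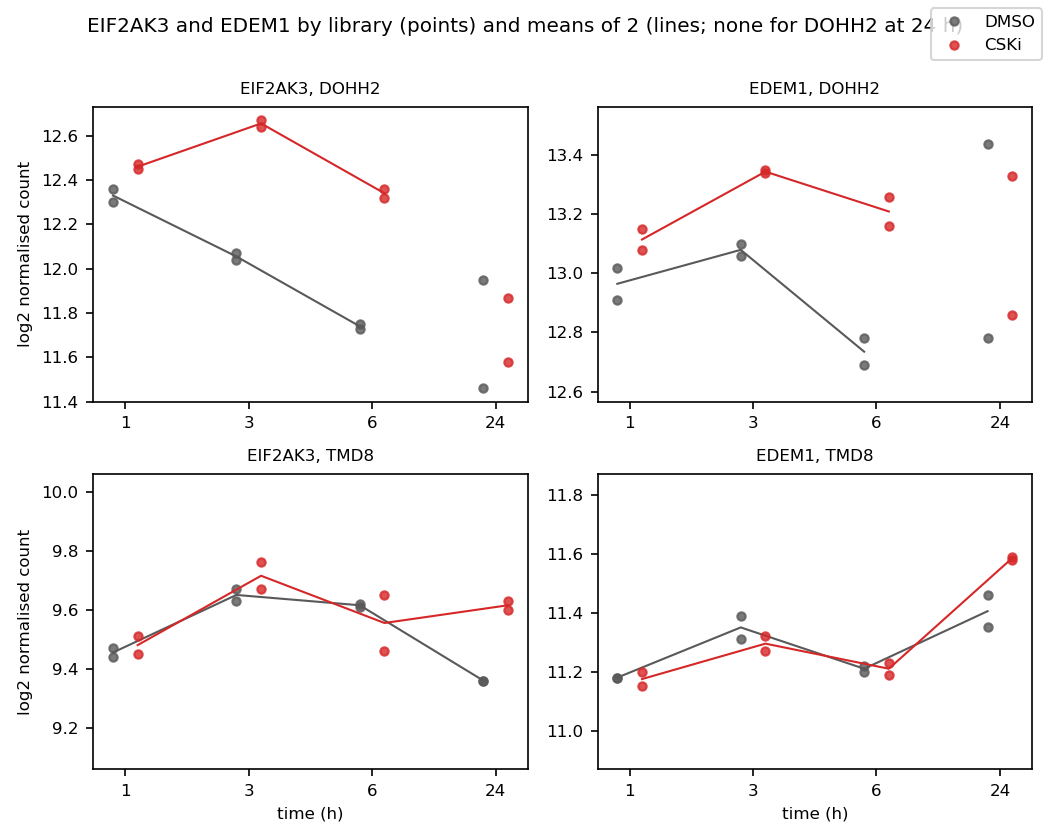
Log2 normalised count of EIF2AK3 and EDEM1 in every library of DOHH2 (top) and TMD8 (bottom) at 1, 3, 6 and 24 h, with DMSO in grey and CSKi in red; lines join means of 2 and are left out for DOHH2 at 24 h, where labels and values are at odds. In DOHH2 both CSKi libraries lie above both DMSO libraries at 3 and 6 h, and at 24 h the 2 labelled arms overlap.

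At 24 h in DOHH2, as labelled, none of the 34 members and none of the 12000 features was called by limma, none of the members had an unadjusted p under 0.05, and voom called 0. HSPA5 read 13.69 and 13.97 in the libraries labelled DMSO and 13.99 and 13.64 in those labelled CSKi, so replicate 2 of DMSO and replicate 1 of CSKi were the high pair. EIF2AK3 read 11.95 and 11.46 in DMSO and 11.58 and 11.87 in CSKi, with DMSO replicate 1 and CSKi replicate 2 high. EDEM1 read 13.44 and 12.78 against 12.86 and 13.33, in the same order as EIF2AK3. No direction of response is drawn from these 4 libraries.

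The difference between the lines was tested in 1 fit of 28 libraries, as the TMD8 response minus the DOHH2 response. At 1 h no member differed by limma (0.45% of features called); 6 members had an unadjusted p under 0.05, and voom on recovered reads called 1. At 3 h 3 members were called, all more negative in TMD8 (4.82% of features, 2.64% more negative and 2.18% more positive), with EIF2AK3 at -0.53 ± 0.07 (limma adjusted p = 3.7e-05), EDEM1 at -0.31 ± 0.06 (0.00451) and HSP90B1 at -0.16 ± 0.04 (0.013). At 6 h 6 were called, 3 each way (5.98% of features, 3.46% more negative and 2.52% more positive), with EIF2AK3 at -0.66 ± 0.07 (6.63e-07), EDEM1 at -0.47 ± 0.06 (2.52e-05), PDIA4 at -0.21 ± 0.05 (0.0103), MZB1 at 0.43 ± 0.06 (6.13e-05), SEC61B at 0.22 ± 0.07 (0.0497) and HSP90B1 at 0.14 ± 0.04 (0.0257). MZB1 and EIF2AK3 at 6 h were called in every alternative run and without any 1 library. The HSP90B1 and SEC61B differences at 6 h were lost without any 1 of the 8 libraries (up to 0.0998 and 0.197), that of PDIA4 in 3 of the 8 fits (up to 0.0931), and that of HSP90B1 at 3 h in 4 of them (up to 0.0885). With the DOHH2 24 h libraries in the fit the 3 h difference of EIF2AK3 had an adjusted p of 0.0645 and that of EDEM1 0.558. The fall of HSPA5 differed between the lines by -0.14 ± 0.05 at 6 h, which did not pass (adjusted p = 0.0958 by limma).

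Some members also differed between times within the DMSO arm. In TMD8 DMSO 16 of the 34 members were higher and 3 lower at 24 h than at 1 h (46.7% of features called in either direction, 22.8% higher and 23.9% lower) with a median of 0.14 against -0.01 for all features. The 16 comprise 5 of 11 chaperones and cofactors, 3 of 4 isomerases, all 3 degradation genes, 1 of 5 sensors, 2 of 9 translocation genes and both genes of vesicle traffic. CANX rose by 0.44 ± 0.03, HSP90B1 by 0.39 ± 0.03, PDIA6 by 0.41 ± 0.04, KDELR2 by 0.40 ± 0.06, HSPA5 by 0.28 ± 0.03 and CALR by 0.22 ± 0.03, while MZB1 fell by 0.48 ± 0.05, ERN1 by 0.55 ± 0.16 and SEC61B by 0.32 ± 0.04. CANX in DMSO went from 13.27 and 13.25 at 1 h to 13.70 and 13.70 at 24 h, and in CSKi it read 13.30 and 13.26 at 1 h and 13.18 and 13.21 at 24 h. MZB1 in DMSO went from 11.51 and 11.49 to 11.03 and 11.01, while in CSKi it read 11.43 and 11.53 at 1 h and 12.07 and 11.96 at 24 h. This vehicle change and the CSKi difference at 24 h use the same 2 DMSO libraries, so the first is not independent of the second. The call of ERN1 was lost without DMSO 1 h replicate 1 or DMSO 24 h replicate 2 (up to 0.4 by limma). Between 1 and 6 h 4 members were higher and 1 lower in TMD8 DMSO (23.5% of features called, a larger share than that of the members), among them KDELR2 at 0.29 ± 0.06 and MZB1 at -0.23 ± 0.05.

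In DOHH2 the vehicle libraries of 3 h held less chaperone transcript than those of 1 h. This comparison was added after the values were seen. HSPA5 read 13.65 and 13.69 in DMSO at 1 h, 12.91 and 12.92 at 3 h and 13.51 and 13.45 at 6 h. The CSKi libraries passed through the same low point, with 13.49 and 13.60, then 12.79 and 12.75, then 13.19 and 13.24. In both arms the 3 h libraries lay below those of 1 and 6 h. Between 1 and 3 h in vehicle 16 members fell and 5 rose (33.8% of features called, 17.3% lower), and the median was -0.13 for members and -0.02 for all features.

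HSPA5 fell by 0.75 ± 0.04 from 1 to 3 h in DOHH2 vehicle (limma adjusted p = 4e-13), 1.68-fold, SDF2L1 by 0.64 ± 0.08, SEC24D by 0.51 ± 0.08, HSP90B1 by 0.48 ± 0.04 and CALR by 0.42 ± 0.03. HSP90B1 read 12.53 and 12.57 at 1 h and 12.08 and 12.06 at 3 h, and SDF2L1 9.66 and 9.70 against 9.11 and 8.97. Both genes had the times fully apart. HERPUD1 fell by 0.40 ± 0.05, DDIT3 by 0.45 ± 0.10, MZB1 by 0.32 ± 0.04 and EIF2AK3 by 0.27 ± 0.04, while SSR3 rose by 0.25 ± 0.06 and SSR1 by 0.23 ± 0.06. By 6 h HSPA5 was still 0.19 ± 0.04 under its 1 h level, and 13 members were lower and 6 higher than at 1 h (43.7% of features called, 23.4% lower and 20.3% higher), or 8 lower and 6 higher after quantile normalization. With the DOHH2 24 h libraries in the fit 12 of the 21 calls at 3 h were kept, HSPA5, HSP90B1, CALR and SDF2L1 among them, while EIF2AK3 (adjusted p = 0.145 by limma), DDIT3 (0.0642), SSR1 (0.108) and SSR3 (0.243) were not, and HSPA5 at 6 h reached 0.178. Calls over all features at 3 h went from 4060 to 1663 in that fit.

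The dip at 3 h was not matched in TMD8, where HSPA5 in vehicle read 13.26 and 13.22 at 1 h and 13.19 and 13.19 at 3 h. Between these times 3 members were higher and 1 lower in TMD8 (19.4% of features called, 9.68% each way), or 6 and 0 after scaling to total mapped reads, and none was higher or lower by more than 0.26. The lower one, CALR, fell by 0.10 ± 0.03, a call lost without any 1 of the 4 libraries (up to 0.142 by limma). Tested directly, the change from 1 to 3 h was more positive in TMD8 than in DOHH2 for 12 members and more negative for 0 (6.38% of features called, 3.51% more positive). HSPA5 differed by 0.70 ± 0.05 (limma adjusted p = 1.65e-09), HERPUD1 by 0.56 ± 0.08 (0.00024), SDF2L1 by 0.51 ± 0.12 (0.0169), HSP90B1 by 0.49 ± 0.04 (1.33e-08) and SEC24D by 0.48 ± 0.09 (0.00216). SDF2L1 lost the call in 4 of the 8 fits without 1 library (up to 0.106). With the DOHH2 24 h libraries in the fit 4 of the 12 calls were kept, those of HSPA5, HSP90B1, HERPUD1 and SEC24D, while calls over all features went from 766 to 234. Time in vehicle and the separate handling of each time's libraries cannot be told apart.

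**Figure D5:**
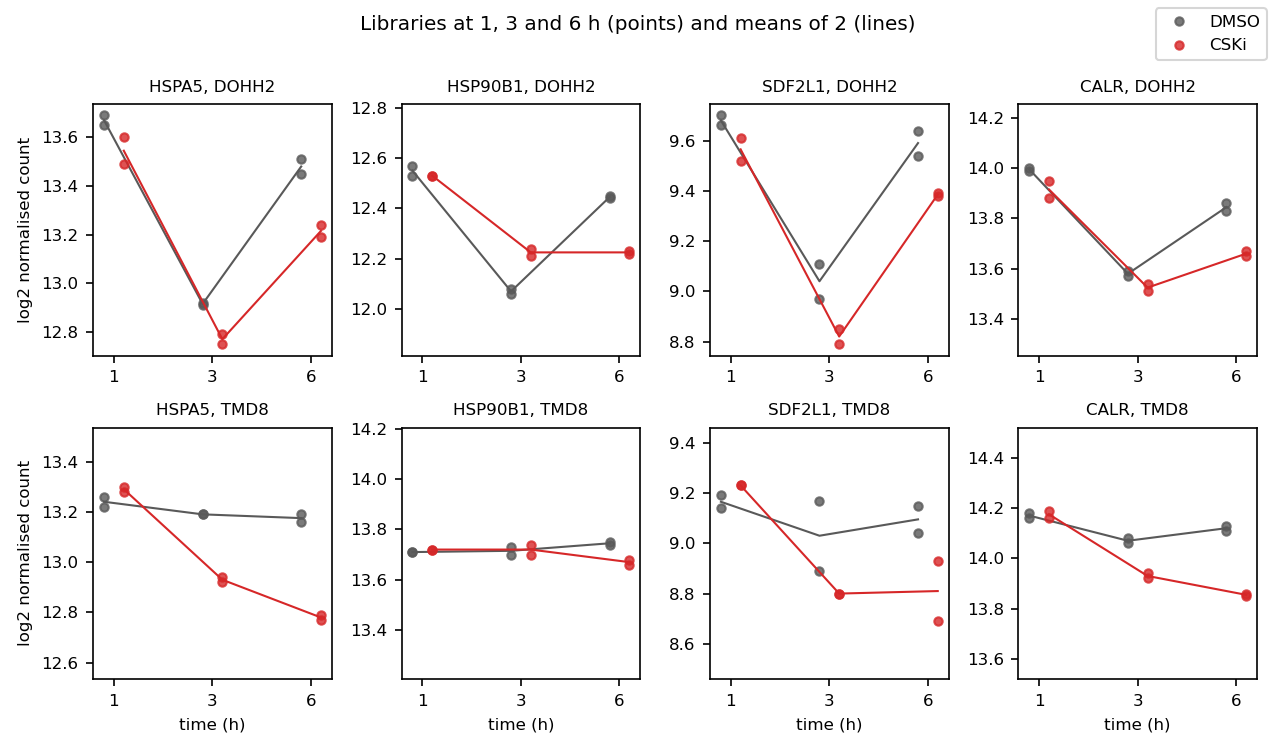
Log2 normalised count of HSPA5, HSP90B1, SDF2L1 and CALR in DOHH2 (top) and TMD8 (bottom) libraries at 1, 3 and 6 h, with DMSO in grey and CSKi in red; points are libraries, lines join means of 2, and panels differ in vertical range. In DOHH2 DMSO these 4 genes are lower at 3 h than at 1 h, with HSPA5 at 12.91 and 12.92 against 13.65 and 13.69. HSPA5 drops in CSKi too, while HSP90B1 is higher in CSKi than in DMSO at 3 h. In TMD8 DMSO only CALR of the 4 was called lower at 3 h.

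The lines also differed in vehicle. Over the DMSO libraries of 1, 3 and 6 h, 12 members were higher and 20 lower in TMD8 (89.4% of features called, 43.8% higher and 45.6% lower), and FKBP11 and SSR1 were not called. Most features differed between the lines, and the 32 calls among 34 members are near that share. The number of calls is thus not particular to the members. As TMD8 minus DOHH2, EIF2AK3 differed most of the members, at -2.47 ± 0.03 or 5.53-fold lower, with EDEM1 at -1.68 ± 0.03, DNAJB9 at -1.45 ± 0.10, HYOU1 at -1.11 ± 0.03 and MZB1 at -1.08 ± 0.03. ERN1 was higher in TMD8 by 1.84 ± 0.10, SEC61B by 1.39 ± 0.03, HSP90B1 by 1.37 ± 0.02 and SEC24D by 1.34 ± 0.04. The 3 sensors differed in opposite directions, with PERK transcript higher in DOHH2 and IRE1 and ATF6 transcript higher in TMD8 (ATF6 by 0.78 ± 0.04). HSPA5 differed by -0.15 ± 0.02 as a mean of these times, but not in 1 direction. Both TMD8 libraries lay below both DOHH2 libraries at 1 and 6 h and above them at 3 h, when DOHH2 was low.

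The wider pathway was followed in 82 further genes of the table, of which 81 were tested in TMD8 and 79 in DOHH2. In TMD8 3 of 81 were lower and 0 higher at 3 h, 8 lower and 2 higher at 6 h, and 33 lower and 14 higher at 24 h. The share lower was 3.7% at 3 h, 9.9% at 6 h and 40.7% at 24 h, against 3.26%, 6.98% and 26.2% of all features, and the share higher at 24 h was 17.3% against 27.9%. The early shares are thus near those of all features. At 3 h the called genes were PPIB, the ER cyclophilin, at -0.21 ± 0.05, ATF4, the transcription factor of the PERK arm, at -0.21 ± 0.05, and TRIB3, a target of ATF4, at -0.38 ± 0.10. At 6 h TXNDC5, a disulphide isomerase, fell by 0.40 ± 0.06 and TRIB3 by 0.44 ± 0.10, and ATF6B, a relative of ATF6, rose by 0.18 ± 0.04.

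At 24 h in TMD8 SYVN1, the ubiquitin ligase HRD1 that SEL1L serves, rose by 0.64 ± 0.04, CREB3L2, a transcription factor held in the ER membrane, by 0.56 ± 0.04, TXNDC11, a thioredoxin-like ER protein, by 0.61 ± 0.05, and DERL3, a channel-like protein of degradation, by 0.65 ± 0.09. TXNDC5 fell by 0.59 ± 0.06, SRP19, a signal recognition particle protein, by 0.42 ± 0.06, and STT3A, a catalytic subunit of oligosaccharyltransferase, by 0.38 ± 0.06. Of 22 further translocation and oligosaccharide transfer genes, 15 were lower and 1 higher, with a median of -0.20, against 8 lower and 6 higher of 28 further folding and degradation genes, 9 lower and 4 higher of 22 tested genes of ER to Golgi traffic, and 1 lower and 3 higher of 9 further sensor arm genes. Of all features 26.2% were lower and 27.9% higher. The folding and degradation list, at 28.6% and 21.4%, is near these shares, as is the 33.3% higher of the sensor arm genes. The translocation list had 68.2% lower and the traffic list 40.9%. DDIT3 rose while ATF4 fell by 0.20 ± 0.05 at this time, and TRIB3 was not called. In DOHH2 5 of 79 were higher and 3 lower at 3 h (6.3% and 3.8%, against 7.28% and 7.27% of all features), and 2 were higher and 6 lower at 6 h (2.5% and 7.6%, against 6.96% and 6.67%), shares near or under those of all features. TXNDC5 had the smallest p at 6 h, at -0.21 ± 0.04.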

How the data were processed

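The members, their roles and the lists of further pathway genes were chosen with earlier results of these data known. Per the labels, RNA was extracted with RNeasy and made into TruSeq stranded mRNA libraries read as pairs. Per the submitters' processing notes, reads were placed on hg19 and counted with HTSeq; no source used here gives versions, the aligner or the strand setting. The deposited table holds log2 values of scaled counts, with 0 for no reads, and a row of total mapped reads on another scale, which was left out of all tests. Dividing by the value of 1 read recovered whole reads (within 0.1) for 99.6 to 100% of the values checked, those up to 300 reads, and the printed read numbers are these.

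A group-means model of the deposited log2 values was fitted in limma 3.58.1 (R 4.3.3) with a mean-variance trend in eBayes. Tests were two-sided, p-values were adjusted by Benjamini-Hochberg over the 12000 most abundant features of the fit, and a call was an adjusted p under 0.05. The fits held 16 TMD8 libraries (8 residual degrees of freedom, lowest mean 21.2 reads), 12 DOHH2 libraries of 1, 3 and 6 h (6, 16.3 reads), 16 DOHH2 libraries for 24 h as labelled (8, 15.1 reads) or 28 libraries of both lines (14, 16.7 reads). All 34 members were tested in each, so none was lost to the filter on low values. Errors are its standard errors. Every library value is given for up to 6 called members with the smallest p per comparison, and always for HSPA5, XBP1, DDIT3 and MZB1 where they are first described. The alternatives were no filter, quantile normalization, eBayes without trend, a replicate block, voom on recovered reads, the DOHH2 24 h libraries in the fit and leaving out each library in turn; scaling to total mapped reads, a crossed block at 24 h and the comparisons of 3 h with 1 h in vehicle were added after the data were seen. Only the fit of 16 TMD8 libraries was run on simulated data, with changes larger than most of those reported here. That run does not show how smaller changes are recovered, nor how the other fits perform.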

Additional observations from a re-analysis of the deposited data

Results flagged for a closer look

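These are tests of a difference between the lines or between times, each past an adjusted p under 0.05 in limma; no explanation was tested.

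The response to CSKi differed between the lines, as TMD8 minus DOHH2 on the log2 scale, with 4.82% of all features called at 3 h and 5.98% at 6 h. At 3 h HSP90B1 gave -0.16, EDEM1 -0.31 and EIF2AK3 -0.53. At 6 h EIF2AK3 gave -0.66, EDEM1 -0.47 and PDIA4 -0.21, while MZB1 gave 0.43, SEC61B 0.22 and HSP90B1 0.14. HSP90B1 thus changed sign between the times, and each of its differences was small and was lost in fits without 1 library. With the DOHH2 24 h libraries in the fit none of the 3 calls at 3 h and 2 of the 6 at 6 h were kept, those of MZB1 and EIF2AK3. Calls over all features went from 579 to 151 at 3 h and from 717 to 250 at 6 h.

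Within TMD8 the response at 24 h differed from that at 6 h in 26.5% of members more positively and in 14.7% more negatively, against 15.4% and 14.1% of all features. The share of members more negative is thus near that of all features. It was more positive at 24 h for ERN1 by 0.79, MZB1 by 0.70, HERPUD1 by 0.68, DDIT3 by 0.68, CRELD2 by 0.55, EIF2AK3 by 0.32, XBP1 by 0.30, SEC24D by 0.28 and SSR2 by 0.25. For SSR3 the difference was -0.38, for PDIA6 -0.37, for CANX -0.33, for HSP90B1 -0.23 and for PDIA3 -0.18. The first group holds 4 of the 5 sensors and transcription factors, each of which lost the call in at least 1 fit without 1 library, and the chaperones and cofactors MZB1 and CRELD2. The second holds the chaperones CANX and HSP90B1, the isomerases PDIA3 and PDIA6, and SSR3.

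The change in vehicle from 1 to 3 h differed between the lines in 12 members, all more positive in TMD8 (6.38% of all features called, 3.51% more positive). The differences were 0.70 for HSPA5, 0.56 for HERPUD1, 0.51 for SDF2L1, 0.49 for HSP90B1, 0.48 for SEC24D, 0.47 for EIF2AK3, 0.37 for DNAJB11, 0.32 for CALR, 0.29 for PDIA4, 0.24 for HYOU1, 0.22 for PDIA6 and 0.21 for MZB1. With the DOHH2 24 h libraries in the fit, the calls of HSPA5, HERPUD1, HSP90B1 and SEC24D were kept and the other 8 were lost.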

How the results depend on the processing

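Counts are of called members, and the cause was not tested for any of the changes. TMD8 at 6 and 24 h kept its counts within 1.5 times in every alternative. With the DOHH2 24 h libraries in the fit, the counts were 0 at 1 h, 1 at 3 h and 1 at 6 h for the DOHH2 response, 7 for vehicle at 6 h, 12 for vehicle at 3 h, 0 and 2 for the line difference of the response at 3 and 6 h, and 4 for that of the vehicle change. Calls over all features fell in each of these runs too, for example from 1635 to 106 for the DOHH2 response at 6 h and from 5241 to 2592 for vehicle at 6 h. Without the trend in eBayes, TMD8 at 3 h gave 3, TMD8 vehicle at 3 h 2, and DOHH2 at 1, 3 and 6 h 0, 3 and 7. Without a filter, DOHH2 at 1 and 3 h gave 1 and 3. Voom gave 8 for TMD8 vehicle at 6 h. Voom and quantile normalization each gave 1 for the line difference at 1 h. Scaling to total mapped reads gave 9 for DOHH2 at 3 h.

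Deviations of same-numbered libraries had r = -0.005 to 0.166 in TMD8, 0.027 to 0.049 in DOHH2 at 1, 3 and 6 h, and -0.476 for DOHH2 at 24 h. The main fits leave the libraries unpaired, and whether the numbers mark pairs was not settled. The replicate block gave 7 called members for DOHH2 at 1 h and 9 at 3 h and moved no other count by over 1.5 times. Calls over all features went from 246 to 472 and from 1745 to 2059 at these 2 times. The crossed block for DOHH2 at 24 h called 0 members and 0 features.

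Leaving out 1 library at a time, where the lone library of an arm is assumed to vary like the other groups, gave 1 to 2 for TMD8 at 3 h, 9 to 13 for its change from 6 to 24 h, 2 to 4 and 1 to 4 for TMD8 vehicle at 6 and 3 h, 1 to 3, 3 to 4 and 8 to 12 for DOHH2 at 1, 3 and 6 h, 0 to 1, 2 to 3 and 3 to 4 for the line difference at 1, 3 and 6 h, and 8 to 11 for that of the vehicle change; the other counts stayed within 1.5 times. For DOHH2 at 24 h as labelled the range was 0 to 5, with 5 without CSKi replicate 2. TRIB3 in TMD8 at 24 h, at -0.02 with all libraries, read -0.28 without CSKi replicate 1 and 0.23 without replicate 2. With 2 libraries a group, small differences in genes of few reads, such as DNAJB9 and ERN1, were not detectable.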
